A study of Homo sapiens with 14 samples.

Results

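After RAC1/PAK1 activation in DLD-1 colorectal cells, 1630 of the 14047 listed STAT5 intervals lay more than 1000 bp from every interval listed for STAT5 or BCL6 in control cells. These isolated intervals were chosen by position alone: an interval of the activator STAT5 list was taken when the gap between its nearest end and the nearest end of any control STAT5 or control BCL6 interval exceeded 1000 bp. They made up 11.6% of the activator STAT5 list (exact Clopper-Pearson 95% interval 11.1% to 12.1%), and the remaining 12417 intervals served for comparison. The number follows from the rule and from the length of the control lists, and is given as a description.

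The series measured binding of STAT5 and BCL6 by chromatin immunoprecipitation with sequencing (ChIP-seq) in DLD-1, an established human colorectal adenocarcinoma line. Control cells carried an empty vector. Activator cells carried pEGFP-C1199Tiam1, a plasmid coding for a fragment of the RAC1 exchange factor TIAM1, and vehicle, while inhibitor cells carried the same plasmid and 20 microM EHT 1864, a RAC inhibitor, for 16 h. All groups were transfected and were processed for ChIP 20 h later, so the controls share the transfection but not the TIAM1 fragment, and their labels name no vehicle. The lists used here come from 2 activator STAT5 libraries (antibody C-17), 2 control STAT5, 2 control BCL6 (antibody N-3) and 3 inhibitor BCL6 libraries. Whether libraries of a group stem from separate cultures is not stated in the labels, and differences between them may be technical only. No test was run: isolated and other intervals come from the same 2 libraries, and intervals of a library are not replicates.

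STAT5 is a transcription factor that enters the nucleus after phosphorylation by Janus kinases and mostly activates genes of growth and survival. BCL6 is a zinc finger repressor best known from germinal centre B cells, and it recognises DNA sequences that resemble those of STAT5, so that either protein can occupy some of the same sites. RAC1 is a small GTPase, and PAK1 is a kinase it activates. An interval far from every control interval is a place where the lists show STAT5 in activator cells without either protein listed close by in control cells.

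Every isolated interval carried a whole number in each of the 2 activator libraries, read here as a number of reads. The lowest value listed was 2, which is called the floor below. Values are given below in the order library 1, library 2. An activator interval was listed only with a value in both libraries, whereas a control interval needed a value in 1 of its 2. The control lists were also longer, with 68320 STAT5 intervals (median width 304 bp) and 68393 BCL6 intervals (median 305 bp). When the control lists were cut to intervals found in both of their libraries, 11158 activator intervals were isolated, 79.4% of the list. Leaving out control STAT5 library 2 gave 2707 isolated intervals. Leaving out control BCL6 library 1 gave 2550 and leaving out control BCL6 library 2 gave 2713. Of the control STAT5 intervals 33713 had a value in library 1 and 40988 in library 2, and of the control BCL6 intervals 34975 and 39705, so most were listed from 1 library.

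Sequences are shown for 5 genes at whose start an isolated interval lay, to let the DNA under these intervals be read. They were picked after their values were seen, among genes whose length in the deposited lists and in RefSeq differed by at most 10 bp. Each is the 250 bases before the gene start from the RefSeq promoter table (GRCh38.p14), read 5′ to 3′ on the gene's strand. Capitals mark bases that the isolated interval covered, placed by its distance from the gene start, on the assumption that RefSeq and the deposited lists use the same start. The windows are chr1:1449439-1449688 (+ strand, ATAD3C), chr13:45201046-45201295 (- strand, KCTD4), chr14:24335072-24335321 (- strand, ADCY4), chr15:78131536-78131785 (- strand, CIB2) and chr18:50266496-50266745 (- strand, CFAP53).
ATAD3C: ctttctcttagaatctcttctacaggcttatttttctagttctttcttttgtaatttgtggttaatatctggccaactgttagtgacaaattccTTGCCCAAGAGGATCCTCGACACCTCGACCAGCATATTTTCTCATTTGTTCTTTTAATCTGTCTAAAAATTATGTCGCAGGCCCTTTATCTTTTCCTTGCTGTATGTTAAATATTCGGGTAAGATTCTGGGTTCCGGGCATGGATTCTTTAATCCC
KCTD4: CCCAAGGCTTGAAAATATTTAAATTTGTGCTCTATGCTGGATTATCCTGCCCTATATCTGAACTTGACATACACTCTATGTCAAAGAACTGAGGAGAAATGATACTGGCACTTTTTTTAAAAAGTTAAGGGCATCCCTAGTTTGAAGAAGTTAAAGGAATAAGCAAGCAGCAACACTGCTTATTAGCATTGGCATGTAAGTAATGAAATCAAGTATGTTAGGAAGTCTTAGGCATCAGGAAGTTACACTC
ADCY4: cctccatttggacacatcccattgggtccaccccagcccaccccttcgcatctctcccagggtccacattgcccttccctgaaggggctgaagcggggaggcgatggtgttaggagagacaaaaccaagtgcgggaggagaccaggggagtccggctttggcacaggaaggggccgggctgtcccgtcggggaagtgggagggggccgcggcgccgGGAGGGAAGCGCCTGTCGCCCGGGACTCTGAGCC
CIB2: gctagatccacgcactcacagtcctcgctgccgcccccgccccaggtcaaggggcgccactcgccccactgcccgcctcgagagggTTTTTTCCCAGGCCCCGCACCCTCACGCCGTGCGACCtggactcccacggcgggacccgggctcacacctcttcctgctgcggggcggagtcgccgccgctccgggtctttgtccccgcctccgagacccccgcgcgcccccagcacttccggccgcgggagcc
CFAP53: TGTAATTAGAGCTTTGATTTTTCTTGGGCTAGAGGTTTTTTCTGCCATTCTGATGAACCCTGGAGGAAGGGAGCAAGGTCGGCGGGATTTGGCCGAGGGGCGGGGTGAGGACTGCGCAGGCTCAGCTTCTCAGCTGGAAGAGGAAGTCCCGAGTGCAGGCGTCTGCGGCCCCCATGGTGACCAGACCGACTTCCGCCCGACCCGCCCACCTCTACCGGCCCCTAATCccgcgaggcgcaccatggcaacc

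The 5 windows differed in base composition and in how much of them the interval covered. ATAD3C codes for a mitochondrial ATPase family protein. Its isolated interval (chromosome 1, 1384914 to 1385175, GRCh37; values 8 and 2) covered 156 bases of the window, 41.0% of them G or C. KCTD4 codes for a BTB domain protein, and its interval (chromosome 13, 45775167 to 45775468; values 3 and 4) covered all 250 bases, with 36.8% G or C. ADCY4 codes for an adenylyl cyclase, and 34 bases of its window were covered, with 73.5% G or C (values 5 and 2). At CIB2, which codes for a calcium-binding protein needed for hearing, the interval was 37 bp wide with 67.6% G or C (values 2 and 2). CFAP53, a gene of cilia and left-right patterning, had 227 covered bases with 59.9% G or C (values 3 and 2).

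The palindrome TTCNNNGAA, the core recognised by STAT proteins (N is any base, and the reverse strand reads the same pattern), occurred in 1 of the 5 windows. That match lay in the ADCY4 window 176 bases before the gene start and outside the capitals. In all, 143 isolated intervals overlapped the stretch from 250 bases before to 50 bases after a gene start. Of their 79 symbols, 42 were in the RefSeq promoter table, with 57 promoters between them. TTCNNNGAA occurred in 3 of the 57 (5.26%, 95% interval 1.10% to 14.6%), beside 7.66% of all 35116 promoters in the table and 8.99% of the 701 promoters of genes with another activator STAT5 interval there. The stricter forms TTCCNGGAA and TTCCTAGAA, which both lie within TTCNNNGAA, occurred in 0 of the 57 promoters (upper limit 6.27%). They occurred in 1.15% and 0.373% of all promoters. Among the 701 promoters of genes with another activator STAT5 interval there, the shares were 2.14% and 0.571%, also below that upper limit. The interval on 57 promoters spans the share of all promoters, and a missing match says only that these letters are not in these windows.

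MicroRNA genes were among the genes with isolated intervals, and 4 mature sequences are shown because their genes are well known or share an interval. MIR221 and MIR222 lie together on the X chromosome and had 1 isolated interval of 8 bp between them (45608149 to 45608156; values 3 and 2), at positions -2455 and -1619 from their starts (negative before the start). Their 3p products share the seed, which is bases 2 to 8 and is printed in capitals. Sequences are from RefSeq (GRCh38.p14).
hsa-miR-221-3p: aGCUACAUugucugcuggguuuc
hsa-miR-222-3p: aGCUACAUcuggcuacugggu
hsa-miR-194-5p: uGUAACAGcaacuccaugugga
hsa-let-7i-5p: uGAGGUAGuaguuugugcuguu

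MIR194-1, whose product is abundant in intestinal epithelium, had an isolated interval of 133 bp (values 2 and 4). MIRLET7I, a member of the let-7 family of growth-restraining microRNAs, had an interval of 216 bp (values 3 and 2). On chromosome 14 an interval of 19 bp (101492766 to 101492784; values 2 and 2) was listed for MIR329-1, MIR329-2, MIR758, MIR323A and MIR1197 together. In total 26 microRNA genes had an isolated interval, at 23 distinct intervals, which is 2.62% of the symbols with one (95% interval 1.72% to 3.81%). The share among symbols with only other activator STAT5 intervals was 1.63% (1.34% to 1.97%), and these intervals overlap.

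Most isolated intervals lay only a little beyond the limit. The gap to the nearest control interval had a median of 1652 bp, and 1055 of the 1630 lay at most 2000 bp away. A further 403 lay at most 10000 bp away, 172 lay farther than 10000 bp, and 23 of those farther than 100000 bp. The nearest control interval was of STAT5 for 780 of them and of BCL6 for 850. Close to the limit, STEAP3, a metal reductase gene, was inside with a gap of 1001 bp (values 2 and 2), as was CRAT, which codes for carnitine acetyltransferase (gap 1001 bp, values 2 and 2). RASAL2, a gene of a RAS GTPase-activating protein, was just outside at 1000 bp (values 2 and 6), as was PKP4 at 999 bp (values 2 and 2). Similar numbers lay on both sides, with 195 intervals in the 100 bp above the limit and 226 in the 100 bp below it.

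The 23 isolated intervals more than 100000 bp from control binding had a median value of 2 in each library, but means of 8.57 and 10.4. The means include an unsymbolled pair on chromosome 21 (ENSG00000222855, gaps of 958300 and 957819 bp), with 45 and 53 in one interval and 100 and 131 in the other. The 5 symbols with the largest gaps had 2 or 3 in each library. At GALNTL6, which codes for a glycosyltransferase-like protein, the interval on chromosome 4 (172736588 to 172736787) had values of 2 and 2 and lay 1209807 bp from the nearest control interval. LDB2, a LIM domain-binding cofactor, had 3 and 3 at a gap of 419437 bp. RNF152, a ubiquitin ligase gene, had 2 and 2 at 288911 bp, and MAOA, which codes for monoamine oxidase A, had 2 and 2 at 243965 bp. The interval of VCAN, which codes for the matrix proteoglycan versican, had 2 and 2 at 231195 bp. Among the 10 symbols with the largest gaps, NOX4 stood apart in library 1. Its interval (chromosome 11, 89228069 to 89228261) had values of 8 and 3 at a gap of 161900 bp, and the gene codes for an NADPH oxidase.

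**Figure D1:**
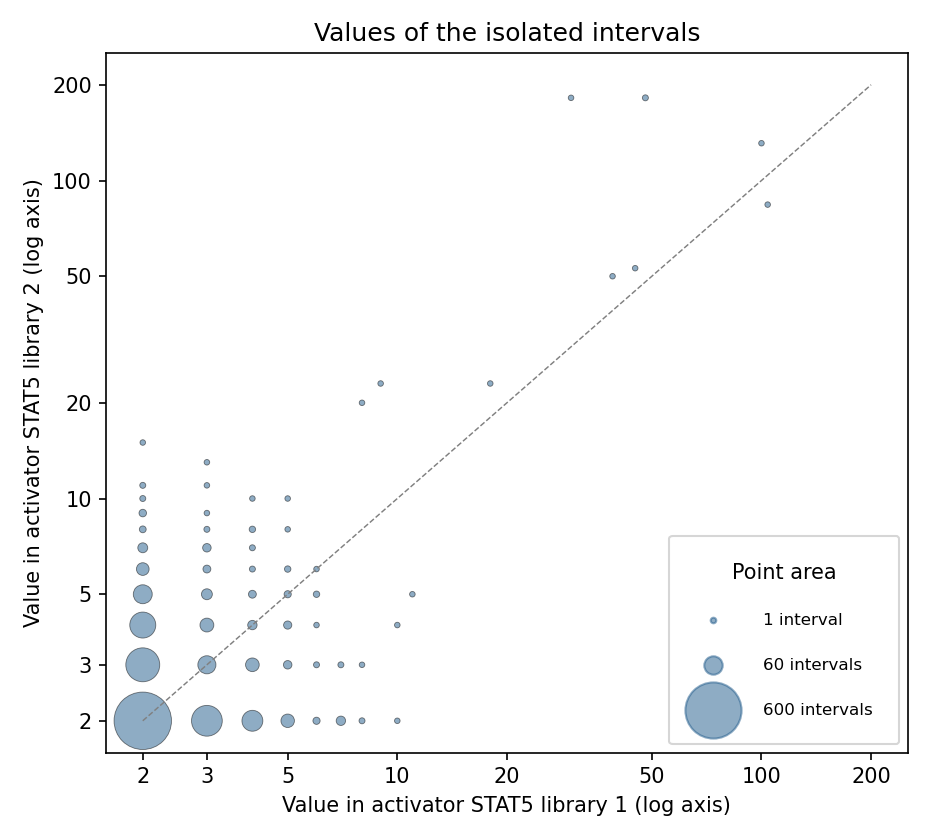
Value of each isolated activator STAT5 interval in library 1 (x axis) and library 2 (y axis), both read as numbers of reads on log axes; point area gives the number of intervals with that pair, and the dashed line marks equal values. The 628 intervals with 2 and 2 form the largest point, and the 10 intervals with a value of at least 18 lie apart from the rest.

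The values of isolated intervals were mostly at the floor. Both libraries read 2 in 628 of the 1630 (38.5%, 95% interval 36.2% to 40.9%), against 34.8% (34.0% to 35.7%) of the other activator STAT5 intervals. The next pairs were 2 and 3 in 216 intervals, 3 and 2 in 177, and 2 and 4 in 125. A value of at least 3 in both libraries was found in 236 isolated intervals (14.5%, 12.8% to 16.3%). Over all activator STAT5 intervals this share was 16.9%, and over the others it was 17.2% (16.6% to 17.9%). So the isolated intervals reached 3 in both libraries in a smaller share of cases, and the pair of 95% intervals does not overlap. They cover counting error only.

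The plot by gap class shows where that difference lay. Activator intervals that overlapped a control BCL6 interval reached 3 in both libraries in 19.5% of cases (18.2% to 20.8%), and those that touched a control STAT5 interval end to end in 20.5% (18.7% to 22.3%). Intervals 1 to 1000 bp away did so in 15.1% (14.3% to 16.0%). The isolated classes had 14.8%, 13.6% and 14.5% in order of rising gap. Isolated intervals thus resembled those a short way off a control interval, and their range overlaps that class. No activator interval overlapped a control STAT5 interval, while 2651 touched one end to end. This describes the deposited lists and is not read as absence of STAT5 from control sites in activator cells. Whether overlapping stretches were taken out when the lists were made was not tested.

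**Figure D2:**
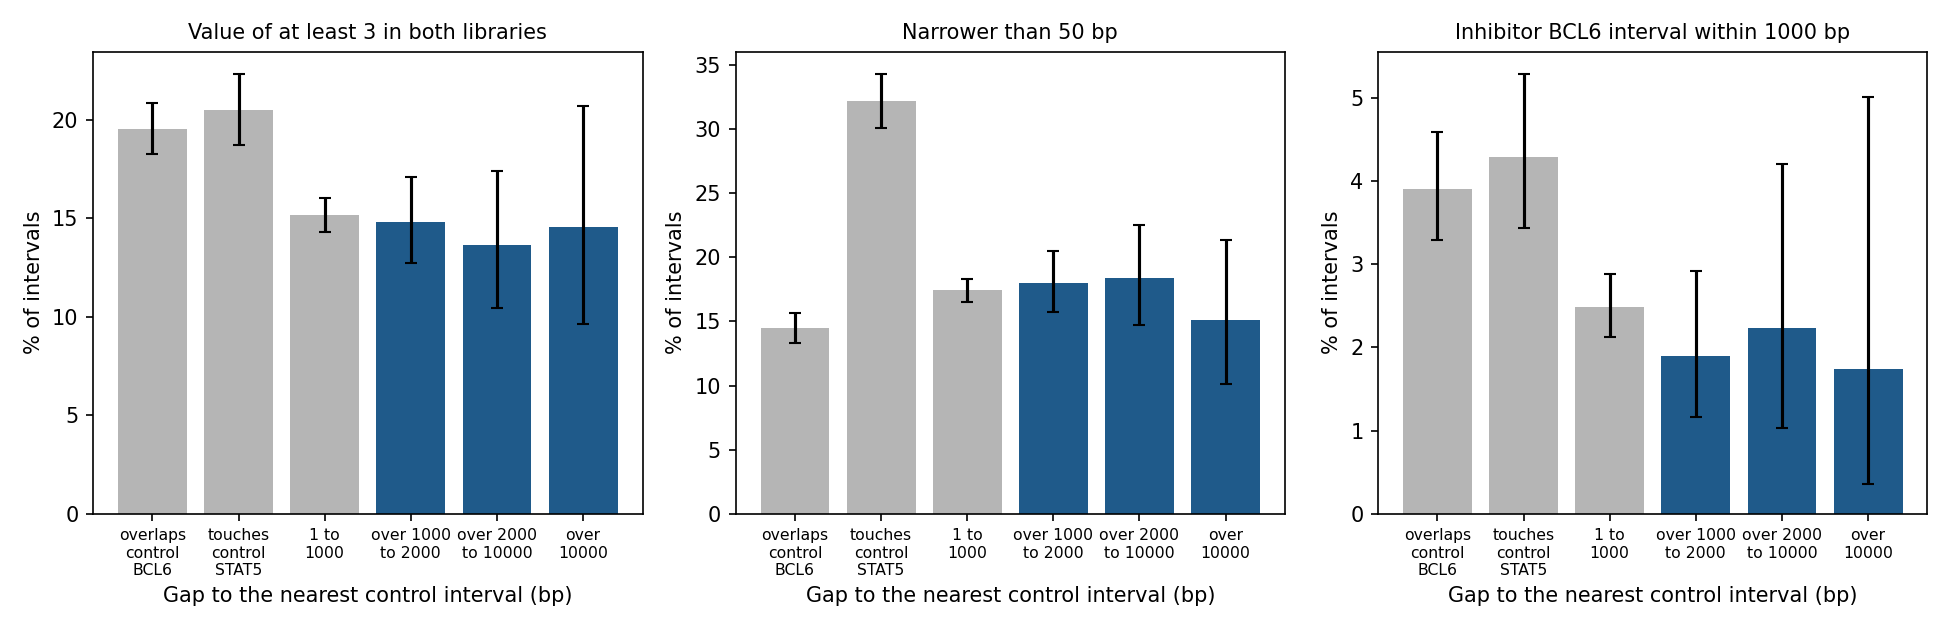
Share of activator STAT5 intervals (%) by distance to the nearest control interval: with a value of at least 3 in both libraries (left), narrower than 50 bp (middle) and with an inhibitor BCL6 interval within 1000 bp (right). Blue bars are isolated intervals, grey bars the others, and lines are exact 95% intervals; the isolated classes reached 14.8%, 13.6% and 14.5% in the left panel, against 19.5% and 20.5% for overlapping and touching intervals.

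Mean values ran the other way while a handful of intervals was included. The mean was 2.82 in isolated and 2.66 in other intervals in library 1, and 3.44 and 3.11 in library 2, differences of 0.163 and 0.335. A value of at least 18 in either library was found in 10 isolated intervals (0.613%) and 17 others (0.137%). Without them the means were 2.56 and 2.65 in library 1, and 2.89 and 3.08 in library 2, differences of -0.0866 and -0.189. The difference over both libraries, 0.249, also fell when 1 control library was left out of the rule, to between 0.102 and 0.136. The isolated intervals held 12.2% of all values summed in library 1 and 12.7% in library 2.

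The highest values were at genes without a symbol in the lists. On the short arm of chromosome 21, an isolated interval of only 8 bp (9826848 to 9826855, ENSG00000222855) had 100 and 131, and its neighbour of 25 bp had 45 and 53. Near the centromere of chromosome 10, the interval from 42391972 to 42392136 (ENSG00000236623) had 104 and 84. The next intervals along it had 48 and 182, again 48 and 182, and 30 and 182. The repeated 182 shows that neighbouring intervals can carry the value of 1 wider peak, so these are not separate measurements. The pseudogene DUX4L50 on chromosome 9 had 18 and 23 in an interval of 118 bp and 9 and 23 in one of 5 bp, and MLLT10P1 on chromosome 20 had 8 and 20.

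Outside these places, named genes reached far lower values. YY1AP1, which codes for a partner of the transcription factor YY1, had 6 and 5 in an interval of 310 bp (chromosome 1, 155660088 to 155660397). NLRX1, a mitochondrial innate immunity gene, had 5 and 6, and SLC35G1, a transporter gene, had 6 and 5. ZFPL1, a Golgi protein gene, had 5 and 8, although its interval was only 7 bp wide. SPINK5, a serine protease inhibitor gene of the skin, had 5 and 6. SCGB3A2, an airway secretoglobin gene, had 10 and 4, so that library 1 gave the larger part. GPR33 and ATP13A4-AS1 both had 4 and 8.

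CFAP53 combined a high lower value, a large gap and a wide interval. Besides the interval at its start shown above, it had one of 379 bp (chromosome 18, 47794837 to 47795215) with values of 5 and 5, at position -1972 and 13457 bp from the nearest control interval. The widest isolated interval at a symbol was 396 bp at ENTPD3, an ectonucleotidase gene (values 4 and 5). ISPD, needed to glycosylate dystroglycan, followed with 389 bp (values 3 and 6). ADCY9, an adenylyl cyclase gene, had 357 bp (values 3 and 5) and BTBD6 340 bp (values 6 and 3). All 4 of these genes had values above the floor of 2 in both libraries.

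The narrowest intervals were of 1 bp, at RESP18 (values 3 and 2), ADRM1 (2 and 2), OR5P4P (2 and 3) and TUBB4BP6 (2 and 2). Widths of isolated intervals had a median of 149 bp (quartiles 69 and 234.75 bp), beside 141 bp (66 and 225 bp) in the others. Intervals narrower than 50 bp made up 17.8% (16.0% to 19.7%) of isolated and 18.9% (18.2% to 19.6%) of other intervals. The class that stood apart was that of intervals touching a control STAT5 interval, with a median width of 86 bp and 32.2% (30.1% to 34.3%) under 50 bp. Isolated intervals were thus about as wide as the rest of the list.

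Position relative to gene starts differed between isolated and other intervals near both ends of the listed range. The lists reach from 3000 bases before to 1000 bases after a gene start. Position is the listed distance from the gene start to the lower coordinate of the interval. That end is upstream for + strand genes and downstream for - strand genes, so the zones mix both ends. In the zone from position -3000 to -2500, 358 of 1708 activator intervals were isolated (21.0%, 95% interval 19.1% to 23.0%). In the zone from position 500 to 1000, 331 of 1744 were (19.0%, 17.2% to 20.9%). From position -2000 to -1500 the share was 7.55%, and from 0 to 500 it was 10.4%. The share was thus highest in the outermost zones, and their 95% intervals do not reach those of the zones between.

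This pattern moves with what the lists could show. Beyond the listed range no control interval can be found, so an activator interval at its edge is searched on 1 side only in part. Of the isolated intervals, 582 (35.7%) had 1000 bp on both sides inside listed windows, against 55.0% of the others. Among activator intervals with such full surroundings 7.85% were isolated (7.25% to 8.48%), and among those without 15.8% (14.9% to 16.7%). The median position was -1060 for isolated intervals (quartiles -2400.5 and 307.75) and -1004 for the others. Only 44 isolated intervals (2.70%) spanned a gene start, against 3.79% of the others.

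**Figure D3:**
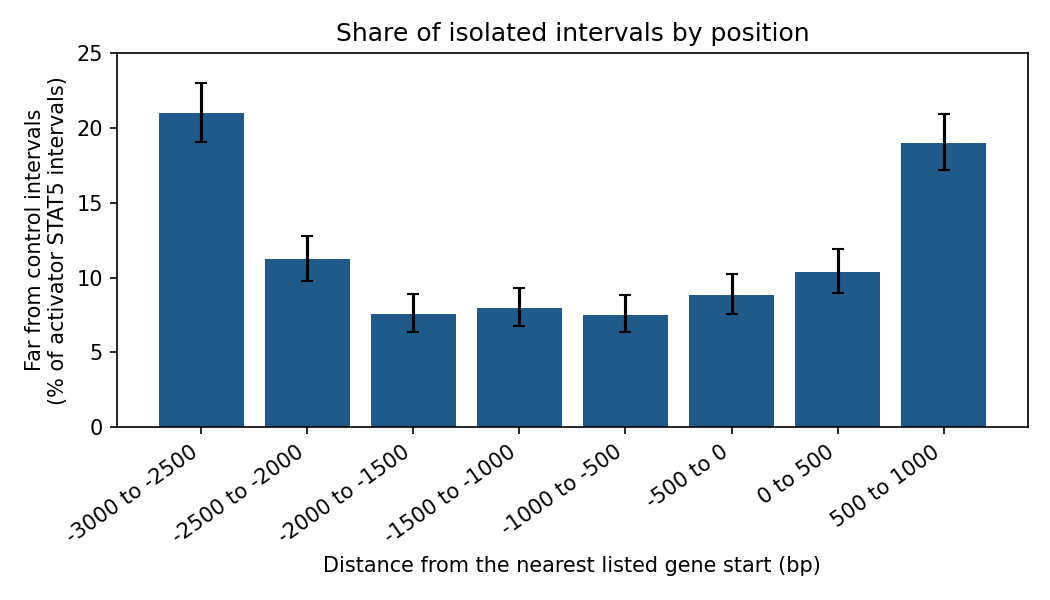
Share of activator STAT5 intervals that were isolated (%), in zones of 500 bp along the listed distance from the gene start to the interval's lower coordinate (bp, negative before the start). Bars are shares and lines exact 95% intervals; the outermost zones, with 21.0% and 19.0%, lie above the zones between, which run from 7.53% to 11.2%.

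An interval that spans a gene start can have a listed distance other than 0, such as that of ADCY4 with 56 (bases -34 to 56). By listed distance, SNORD114-20 lay nearest to a gene start, at 0 bases (values 2 and 3). It is a small nucleolar RNA gene of the imprinted cluster on chromosome 14. TC2N came next at -3 (2 and 2). KCTD4 followed at 8 (3 and 4) with a gap of 78013 bp, and EPPIN, a protease inhibitor gene of the male reproductive tract, at -13 (3 and 4). FAM83E at -18 had 2 and 2, CFAP53 at -24 had 3 and 2, and PTPN21, a tyrosine phosphatase gene, at -27 had 2 and 3. MLLT10P1 at -31 had 8 and 20 and was the exception, and RN7SL505P at 30 (2 and 2) and MSANTD2P1 at -32 (4 and 2) were again low.

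Genes were listed for the isolated intervals as 1634 gene IDs with 993 symbols, and 585 intervals had no symbol at all. The 993 symbols were 12.9% of those in the activator STAT5 list. Protein-coding genes made up 65.2% of them, pseudogenes 23.5% and long noncoding RNA genes 6.75%, beside 68.7%, 20.9% and 5.75% of symbols with other activator intervals only. Of all 20056 protein-coding genes of the reference, 647 (3.23%) had an isolated interval and 26.1% any activator STAT5 interval. At 280 gene IDs (17.1%) neither control list had any interval in the window around the start. Among the 11009 other gene IDs of the activator list this held for 8 (0.0727%). The contrast follows from the rule and is given as a description. At 657 gene IDs with an isolated interval both control lists had an interval, but more than 1000 bp from the isolated one. Another activator interval close to control binding was also present at 300 of the gene IDs with an isolated interval.

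Among listed targets of both factors, 1 gene had an isolated interval. None of 18 listed STAT5 targets had an isolated interval, and 2 of them, ID1 and TNFRSF13B, had any activator STAT5 interval. Of 24 listed BCL6 targets 8 had an activator interval, but only GADD45A an isolated one (chromosome 1, 68148914 to 68148991; values 2 and 4; position -1831). GADD45A codes for a growth arrest protein induced by DNA damage. Over all 19 lists, 149 of 481 genes had an activator STAT5 interval and 13 an isolated one, which is 8.72% of the 149. The background is 12.4% of the protein-coding genes with an activator interval. As a share of all list genes it was 2.70%, beside 3.23% of protein-coding genes.

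The 6 lists of DNA repair and damage signalling hold 131 distinct genes, of which 50 had an activator STAT5 interval and 4 an isolated one. That is 3.05% of the 131 (95% interval 0.838% to 7.63%), beside the background of 3.23%, and 8% of the 50, beside 12.4%, so no difference from the background is read from it. GEN1, the resolvase of recombination intermediates, had 4 and 2 in an interval of 325 bp downstream of its start (chromosome 2, 17935660 to 17935984). FANCE, a subunit of the Fanconi anaemia core complex, had 2 and 3, and both belong to the list of 31 recombination and Fanconi genes, 14 of which had an activator interval. XRCC5, which codes for the Ku80 end-joining subunit, had 2 and 5 at 852 bases after the start and was the only 1 of 10 end-joining genes with an activator interval. GADD45A was the member of the damage signalling list, where 1 of 36 genes had an isolated interval. Base excision repair (0 of 23 genes), nucleotide excision repair (0 of 23) and mismatch repair (0 of 8) had none, although 11, 10 and 2 of their genes had an activator interval.

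The 4 signalling lists (RAC1/PAK, RAS/MAPK/PI3K, WNT and JAK-STAT) hold 157 distinct genes, of which 42 had an activator STAT5 interval and 5 an isolated one. That is 3.18% of the 157 (1.04% to 7.28%) and 11.9% of the 42, again near the backgrounds of 3.23% and 12.4%. In the RAC1/PAK list 1 of 41 genes had one, ARHGEF6, which codes for an exchange factor that binds PAK kinases (X chromosome, 135865590 to 135865762; values 2 and 2). The RAS, MAPK and PI3K list had the largest share of the 4, 3 of 33 genes (9.09%, 1.92% to 24.3%) and 3 of the 10 with an activator interval, and the 95% interval on these few genes includes 3.23%. ERBB3, a receptor of the EGFR family, had 4 and 7 at 97 bases after the start (chromosome 12, 56473990 to 56474045). BRAF and ARAF, which code for RAF kinases, had 3 and 9 and 2 and 3. In the WNT list of 48 genes only ZNRF3, a ubiquitin ligase that removes WNT receptors from the membrane, had one, with 5 and 5 in 331 bp (chromosome 22, 29280387 to 29280717). Outside signalling as well as within it some lists had none: the JAK-STAT (0 of 35), cell cycle (0 of 43), apoptosis (0 of 34) and corepressor (0 of 30) lists, with 6, 14, 8 and 10 genes in the activator list.

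Markers of the labelled tissue and of stromal cells had 1 isolated interval a list. VIL1, which codes for the microvillus protein villin and marks intestinal epithelium, was the 1 of 20 colon epithelium genes (values 2 and 2; position -158). KDR, which codes for a receptor of vascular endothelial growth factor, was the 1 of 14 fibroblast and endothelial genes (values 5 and 3). Intervals in a list give binding positions and not expression, so these markers do not check the identity of the cells.

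The X chromosome stood apart. Of its 96 activator STAT5 intervals 45 were isolated (46.9%, 95% interval 36.6% to 57.3%), against 1582 of 13944 on the autosomes (11.3%, 10.8% to 11.9%). Per 100 gene starts of the lists the isolated intervals were about as frequent on X as on the autosomes, 3.20 against 3.76. Per Mb they were scarcer on X, 0.296 against 0.567, although chromosome 8 alone had 0.274. Genes absent from the lists do not enter the count of gene starts. How far that omission separates these measures was not tested. All activator STAT5 intervals were scarcer on X, 6.82 against 33.2 per 100 gene starts. Control intervals were scarcer too, with 0.747 STAT5 and 0.694 BCL6 intervals per gene start on X, where the autosomes ranged from 1.33 to 1.87 and from 1.27 to 1.96. Among intervals with full listed surroundings 17 of 52 on X were isolated (32.7%, 20.3% to 47.1%), against 7.65% on autosomes. The part of the low control density in the share was not tested.

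Isolated intervals on X had low values. Both libraries read 2 in 32 of the 45, and 1 of the 45 reached 3 in both. Their median gap was 6617 bp, and 28 had no control interval at any of their gene IDs. Genes with one included ATRX, a chromatin remodeller (2 and 2), ATP7A, a copper transporter (2 and 2), and PHEX, an endopeptidase of phosphate balance (2 and 2). NOX1, the NADPH oxidase of colon epithelium that RAC1 activates, had 2 and 2 in an interval of 261 bp (100128754 to 100129014) at listed position 580. It lay 1704 bp from a control BCL6 interval and was singled out after its values were seen. Chromosome Y had 3 isolated of 7.

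**Figure D4:**
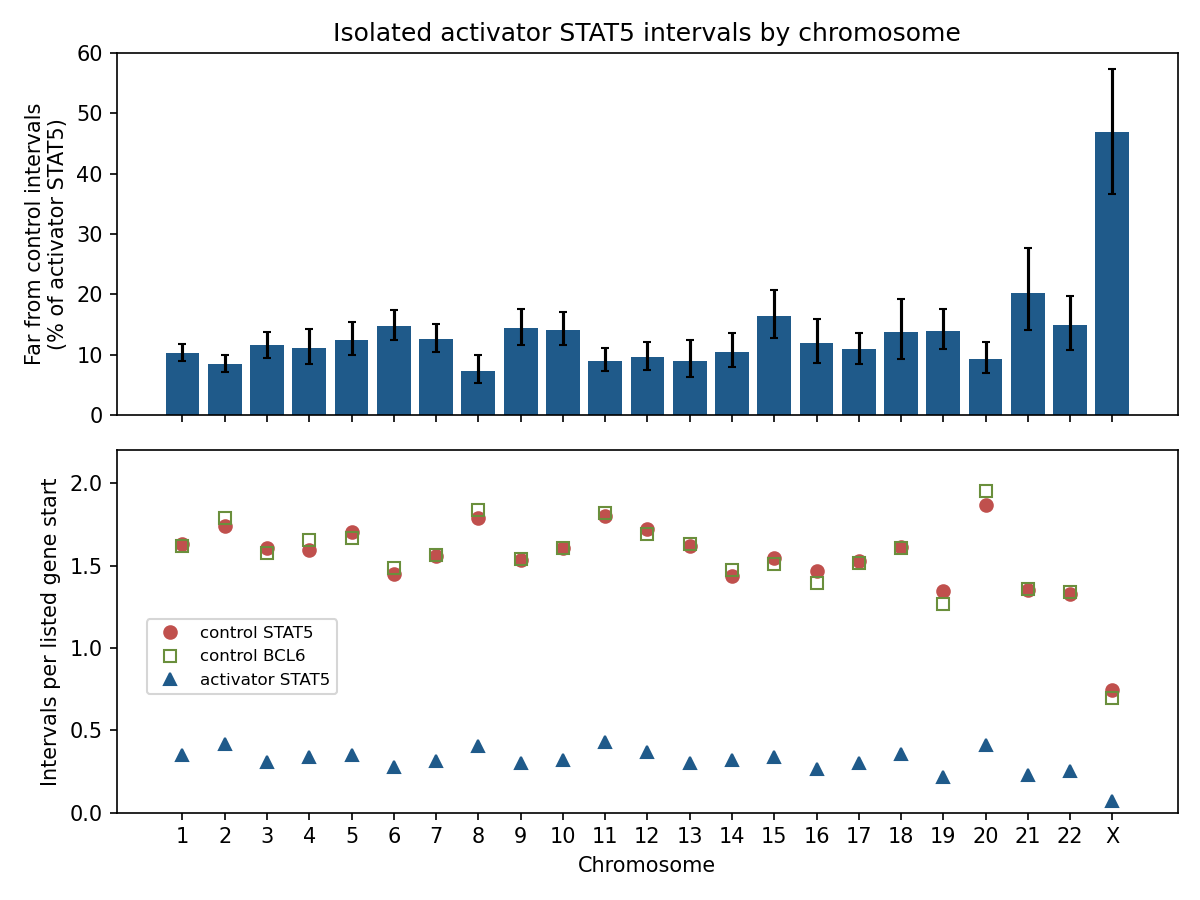
Upper panel: share of activator STAT5 intervals that were isolated (%) by chromosome, with exact 95% intervals. Lower panel: control STAT5, control BCL6 and activator STAT5 intervals per listed gene start; X has 46.9% isolated and the fewest control intervals per gene start of the chromosomes drawn, 0.747 and 0.694.

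Among autosomes the isolated share ran from 7.39% on chromosome 8 (40 of 541) and 8.46% on chromosome 2 (131 of 1549) to 16.5% on chromosome 15 (60 of 364) and 20.3% on chromosome 21 (30 of 148; 14.1% to 27.7%). Chromosome 21 also had few control intervals, 1.35 STAT5 and 1.36 BCL6 per gene start, and chromosome 8 many, 1.79 and 1.84. Chromosome 15 had 1.55 and 1.51. Chromosome 20 had the most among autosomes, 1.87 and 1.96, with a share of 9.38%. Over the 22 autosomes the rank (Spearman) correlation of the share with control intervals per gene start was -0.738. The part of control density in the share was not tested. Density per Mb was highest on the gene-dense chromosomes 22 (1.17 isolated intervals) and 19 (1.04) and lowest on chromosome 8 (0.274) among autosomes. Per 100 gene starts the autosomes lay between 2.70 on chromosome 13 and 5.52 on chromosome 15. On chromosome 2 between 30 and 75 Mb only 14 of 628 activator intervals were isolated (2.23%, 1.22% to 3.71%), a stretch picked after the values were seen.

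Isolated intervals were spread thinly, with some local groups. Of the 1630, 247 had another isolated interval within 1000 bp. Joining neighbours with the same pair of values left 1572 places. Only 10 groups had at least 4 isolated intervals linked by gaps of at most 100000 bp, with 41 intervals in all. One lay on chromosome 3 at ALG3, ECE2, EIF4G1, THPO and CHRD, where 4 of the 8 activator STAT5 intervals in the stretch were isolated. The values of these 4 were 2 in library 1 and 2 or 3 in library 2. EIF4G1 codes for a translation initiation scaffold and THPO for thrombopoietin, a cytokine that signals through STAT5. MCRS1 had 4 isolated intervals on chromosome 12 between 49964179 and 49965028, each with 3 in library 1, and SKP1, a subunit of SCF ubiquitin ligases, had 3 (values 2 and 4, 2 and 8, and 3 and 3). Those at SKP1 lay 14213 to 15851 bp from control STAT5 intervals.

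The inhibitor BCL6 list was not used to choose the intervals. Of its 1652 intervals, however, only 176 (10.7%) lay more than 1000 bp from every control interval. Most thus lay near control intervals, which the rule keeps away from isolated intervals, so the shares below are not independent of the rule. Over all activator STAT5 intervals 3.03% had an inhibitor BCL6 interval within 1000 bp. It was 32 of the isolated intervals (1.96%, 1.35% to 2.76%) and 394 of the others (3.17%, 2.87% to 3.50%). Intervals that overlapped control BCL6 or touched control STAT5 had 3.90% and 4.29%, and those 1 to 1000 bp away 2.48% (2.13% to 2.88%), a range that overlaps that of isolated intervals. Direct overlap was as rare in both sets, 0.491% and 0.523%. With full listed surroundings the share was 2.06% (1.07% to 3.57%) in isolated and 3.19% (2.79% to 3.63%) in other intervals, and these ranges overlap.

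In all, 8 isolated intervals shared bases with an inhibitor BCL6 interval. The interval at EMC6 and TAX1BP3 (chromosome 17, 3572598 to 3572810; values 2 and 2) lay whole inside an inhibitor BCL6 interval with values of 4, 2 and 7 in its 3 libraries. At L3MBTL1, a Polycomb-related chromatin reader gene, the interval with 5 and 2 met one with 2, 2 and 4. MIR581 (3 and 4) met one with 4, 4 and 4, and shared the most bases, 239. The remaining ones were at THOC1, LINC00160, PHC3, ICE1 and PRR15. At BRAF the isolated interval (chromosome 7, 140623593 to 140623751) ended 26 bp from an inhibitor BCL6 interval with 2, 2 and 2.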

How the data were processed

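Chromatin of DLD-1 cells was precipitated with STAT5 or BCL6 antibodies and sequenced. The submitters' processing notes name Bowtie 0.12.7 and CASAVA 1.8.2 as tools and GRCh37 as the build of the coordinates. No label or header names the peak caller. The authors deposited lists of intervals near Ensembl gene starts with 1 whole number per library. The header does not name that quantity, and the deposited values were read as counts of reads. They were used as deposited, without further normalization, and no label or header gives library depth. The values summed to 37629 and 44216 in the activator STAT5 libraries. Distance is signed and runs from the gene start to the lower coordinate of the interval. That is the upstream end for genes on the + strand and the downstream end for genes on the - strand. The activator BCL6 and inhibitor STAT5 libraries, 5 in all, were not analysed here. Both control lists were identified by their column headers, which name control libraries. The deposited names of these lists instead read inhibitor STAT5 and activator BCL6, and the headers were followed.

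Each distinct interval was counted once. The gap was the number of bases between the nearest ends, checked on simulated data with known gaps. Shares have exact Clopper-Pearson intervals at the 95% level, for counting error only. Neighbouring intervals can repeat the value of 1 wider peak. Python 3.11.15, pandas 2.3.3, numpy 2.4.6, scipy 1.17.1 and matplotlib 3.10.9 were used. Symbols were matched to RefSeq (GRCh38.p14) for names, gene types and sequences, and 988 of 993 matched; no interval was moved between builds.

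The members and gene lists were chosen with earlier results of these data known. Named were members with a symbol that had the highest lower value of both libraries (15), the largest gap (10), the largest and smallest width (5 each), the least distance from the limit (5 inside, 5 outside) or from a gene start (10), and those near inhibitor BCL6 (10) or in a gene list. The microRNA genes, printed promoters, gene groups, NOX1 and the other named genes of the X chromosome were chosen after their values were seen. A few genes that the rule names are not reported here. Alternatives were other gap limits, other control lists, stricter values or widths, full listed surroundings and each library left out in turn.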

Additional observations from a re-analysis of the deposited data

How the results depend on the processing

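The number of isolated intervals (1630), of their symbols (993) and their share of the activator STAT5 list (11.6%) follow from the limit and the control lists. A limit of 500 bp gave 3323, 2035 and 23.7%, one of 2000 bp 575, 338 and 4.09%, and one of 5000 bp 219, 137 and 1.56%. Control intervals found in both of their libraries gave 11158, 6282 and 79.4%, the control STAT5 list alone 4546, 2679 and 32.4%, and the control BCL6 list alone 4211, 2576 and 29.98%. Values of at least 3 in both activator libraries left 236, 144 and 9.93%, and full listed surroundings 582, 395 and 7.85%. Leaving out 1 control library gave 2397 to 2713 intervals, 1476 to 1643 symbols and 17.1% to 19.3%. The difference in mean value (0.249) was 0.0714, 0.760 and 1.36 at 500, 2000 and 5000 bp, 0.0435 and 0.0437 with the control STAT5 or BCL6 list alone, 2.50 for values of at least 3 and 0.691 with full surroundings. It turned to -0.159 with control intervals of both libraries and, in an alternative added after seeing the data, to -0.138 without values of at least 18. Over left-out libraries it ran from 0.102 to 0.335. The median width (149 bp) was 162 bp at 5000 bp, 161 and 139 bp with the control STAT5 or BCL6 list alone, 165.5 bp for values of at least 3 and 180 bp for intervals of at least 50 bp. Over left-out libraries it ran from 144 to 156 bp. The median position was -880.5 with full surroundings, and -1083.5 to -981 over left-out libraries. The share near inhibitor BCL6 (1.96%) was 2.82% with control intervals of both libraries and 2.97% for values of at least 3; over left-out libraries it ran from 1.84% to 2.21%. Restriction to autosomes and a gap counted from coordinates, both added after seeing the data, gave 1582 and 1631 intervals. No paired analysis was possible because no library number is shared between groups in the labels and no test was run.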

Other observations

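The same distance rule was applied to the inhibitor BCL6 list, which has a value in each of 3 libraries. Of its 1652 intervals 176 lay more than 1000 bp from every control STAT5 and control BCL6 interval (10.7%, exact 95% interval 9.21% to 12.2%), beside 11.6% of the activator STAT5 list. Both lists were set against the same control intervals.

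Shares of gene families are given for symbols with isolated and with other activator STAT5 intervals, with no test of the difference. Olfactory receptor genes and pseudogenes, which code for odorant receptors, made up 16 of the 993 symbols (1.61%, 0.924% to 2.60%), against 2.41% (2.06% to 2.81%) of symbols with other activator intervals only. Zinc finger genes of the ZNF series, most of which code for transcriptional repressors, made up 1.61% and 1.57%. Symbols of the RNU series, small nuclear RNA genes and their copies, made up 4.33% and 4.42%. Repeated copies can share reads, so intervals at these families and at pseudogenes are uncertain.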
